A study of Mus musculus with 10 samples.

Results

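The cytosolic ribosomal protein genes were followed in the hearts of *Rit1* M90I/+ mice that received either vehicle control or the MEK1/MEK2 inhibitor (MEKi) trametinib. A gene was counted as a member where the deposited table gave it as protein coding with a name that begins with Rpl or Rps and a digit, or that is *Rplp0*, *Rplp1*, *Rplp2* or *Rpsa*. The S6 kinases, the binding protein genes and names that contain -ps were left out. This gave 85 of the 54532 rows of the table, 52 for proteins of the large 60S subunit and 33 for proteins of the small 40S subunit. The rule uses names alone, so no measured value chose the members. There were 5 hearts from vehicle control mice and 5 from mice given daily trametinib (1 mg/kg) over 20 weeks, starting when they were 4 weeks old. All 10 mice were heterozygous for the *Rit1* M90I allele, switched on by a Cre deleter driven by a cytomegalovirus promoter, so that the variant was present in every tissue and not in cardiomyocytes alone. Wild-type hearts were not analysed here.

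The ribosome translates mRNA in the cytosol, and each ribosome holds a single copy of nearly every ribosomal protein, with the acidic stalk proteins as the exception. The mRNAs of these proteins belong to the class called TOP mRNAs, which start at a C followed by a run of pyrimidines, the 5′ terminal oligopyrimidine motif. Through this motif their translation is raised or held back by mTOR complex 1 and the RNA-binding protein LARP1. The MAPK pathway, in which MEK acts, reaches the ribosome by phosphorylation of the ribosomal protein S6 and by the synthesis of ribosomal RNA. Growth of the heart muscle in hypertrophy goes together with a larger number of ribosomes. Levels of mRNA report neither translation nor the number of ribosomes, so the values below are of the transcripts only.

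The libraries were made from polyadenylated RNA, and the values are FPKM, fragment counts normalized by gene length and library size. Genes received 13647167 to 18474002 fragments in a heart, and mitochondrial genes took from 24 to 35.0% of them. Cardiomyocyte markers were high in every heart, with a summed level of 9858 to 13638 FPKM for 6 genes. Atrial markers were high in vehicle hearts 4 and 5 and MEKi heart 2, at 423 to 898 FPKM against 13.7 to 59.0 FPKM in the other hearts. Red cell markers were high in vehicle hearts 4 and 5, at 23639 and 25874 FPKM against 2899 to 7386 FPKM elsewhere. *Xist* had 0 to 2 fragments in each vehicle heart and 1456 to 2199 in each MEKi-treated heart, whereas *Ddx3y*, *Eif2s3y* and *Uty* were at 0 fragments in every MEKi-treated heart and between 1.20 and 12.2 FPKM in vehicle hearts. The split of the hearts by these X- and Y-linked transcripts was the same as the split by treatment, so treatment and sex cannot be told apart in any difference given below.

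Ribosomal protein transcripts were among the most abundant in the heart. Of the 85 members, 80 reached a mean of 0.5 FPKM across the 10 hearts, the level that a gene needed to be tested, and these were 48 of the 52 genes for 60S proteins and 32 of the 33 for 40S proteins. The median of their means was 143 FPKM, against 3.57 FPKM for the 12602 genes tested. Mean levels of 63 members lay above 65.7 FPKM, the 95th percentile of all genes tested, and 47 lay between 100 and 400 FPKM. The members sat on 19 chromosomes, with 14 on chromosome 7, 4 on the X chromosome and 0 on the Y chromosome. The means spanned 7.16 FPKM for *Rpl22l1*, a paralog that is not part of every ribosome, to 1209 FPKM for the stalk protein gene *Rplp1*, as the plot of members by level shows. FPKM divides by the length in the table, which equals the union of all annotated exons for 81 of the 85 members and so counts bases that the main transcript may lack, and the part of this in the range was not tested.

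**Figure D1:**
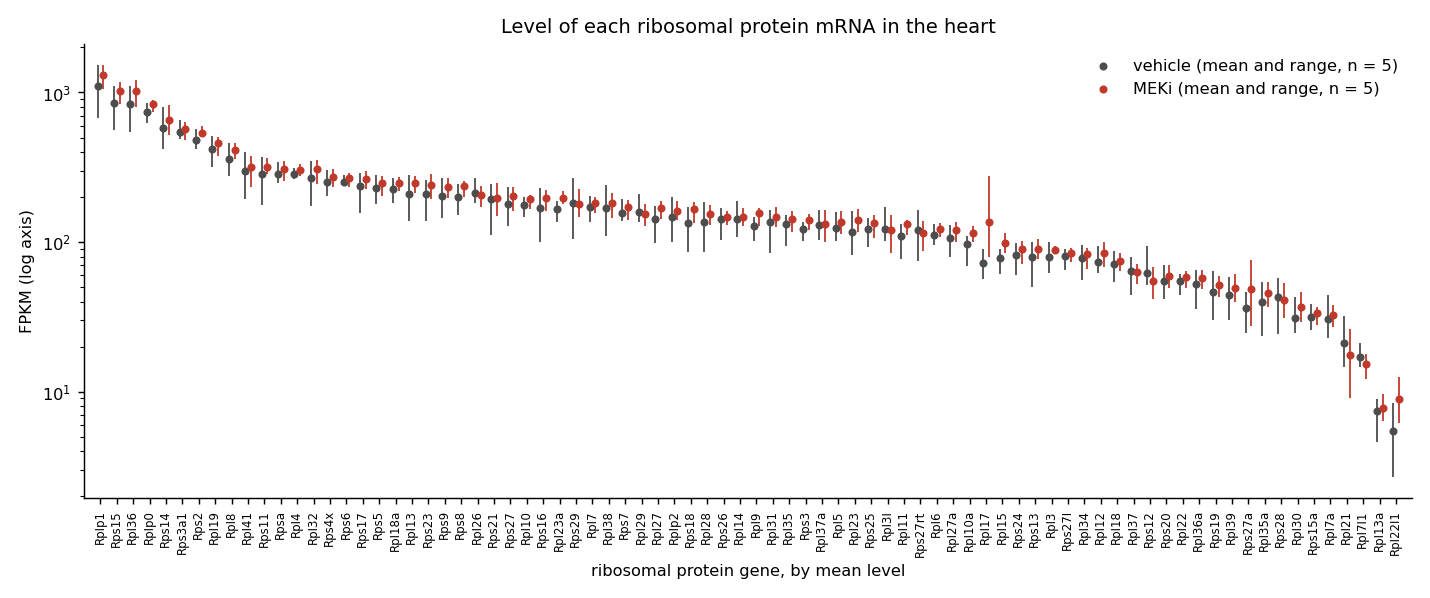
FPKM on a log axis of the 80 ribosomal protein genes tested, ordered by mean level, with the mean (point) and range (line) of 5 vehicle control hearts in grey and 5 MEKi-treated hearts in red. Levels run from 1209 FPKM for *Rplp1* to 7.16 FPKM for *Rpl22l1*, and the ranges of the groups overlap for every gene.

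*Rplp1*, *Rps15*, *Rpl36* and *Rplp0* had the highest levels, and together held 24% of the summed FPKM of the members. *Rplp1* encodes an acidic protein of the ribosomal stalk, which recruits elongation factors (chromosome 9, from 61913284 to 61914542, minus strand, GRCm38). It stood at 1525, 923, 670.5, 1187 and 1258 FPKM in vehicle hearts 1 to 5, and at 1049, 1537, 1286, 1436 and 1218 FPKM in MEKi-treated hearts 1 to 5. Vehicle heart 3 was lowest and the groups overlapped. *Rps15*, which encodes a protein of the 40S head, ranged from 562 to 1101 FPKM in vehicle and from 835 to 1169 FPKM in MEKi-treated hearts. *Rpl36*, for a 60S protein, ranged from 545 to 1097 FPKM in vehicle and from 805 to 1221 FPKM in MEKi-treated hearts. For *Rplp0*, which encodes the base of the stalk, the ranges were 630 to 855 FPKM in vehicle and 745 to 894 FPKM in MEKi-treated hearts, the narrowest of these genes. *Rpl36* shared 55.3% of its 100-base sequence words with other genes and *Rplp1* shared 30%, so some of their fragments may not have been assigned uniquely.

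At the low end, 4 members past the filter stood under 20 FPKM. *Rpl22l1* and *Rpl7l1*, paralogs of *Rpl22* and *Rpl7*, were at 7.16 and 16.2 FPKM, and *Rpl13a* and *Rpl21*, genes for 60S proteins of every ribosome, at 7.61 and 19.4 FPKM. Another 5 members did not reach 0.5 FPKM. They were *Rps10* (0.44 FPKM), *Rpl24* (0.23 FPKM), *Rpl36al* (0.16 FPKM) and *Rpl39l* (0.081 FPKM), with at most 33, 10, 9 and 3 fragments in any heart, and *Rpl10l*, listed at 0 in all 10 hearts. *Rpl10l* and *Rpl39l* are known as testis-expressed copies of *Rpl10* and *Rpl39*, whereas S10 and L24 are proteins of every ribosome.

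The annotation set several of these low members apart. In GENCODE M21, exons of another gene on the same strand covered 95.3% of the coding bases of *Rpl36al* (by *Gm49383*), 90.3% of those of *Rpl13a* (*Gm45713*), 83.4% of those of *Rpl24* (*Gm28037*) and 80.1% of those of *Rps10* (*RPS10-NUDT3*), and each of these overlapping genes was listed at 0 FPKM in every heart. For 79 of the 85 members no coding base was covered in this way. A fragment that lies within 2 genes cannot be given to one of them by position, so the levels of these 4 members are uncertain, and their part in the low values was not tested. Processed copies hold further fragments of the family. The table holds 298 rows named as a -ps copy of a member, of which 76 passed the filter, and their summed mean was 13.9% of that of the members. In 8 cases the copy stood above its parent, as for these copies named after their values were seen, *Rps10-ps2* at 249 FPKM against 0.44 FPKM for *Rps10*, *Rpl17-ps10* at 297 FPKM against 104 FPKM for *Rpl17*, *Rpl21-ps15* at 136 FPKM against 19.4 FPKM for *Rpl21* and *Rps12-ps3* at 132 FPKM against 58.6 FPKM for *Rps12*. Of the 85 members, 78 shared at least one 100-base word with another gene, so levels of single members depend on how such fragments were placed.

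Pyrimidine runs were common near the annotated starts of these genes. RefSeq (GRCm38.p6) gives a start window for 65 of the 85 members, from 250 bases before to 50 bases after the annotated start. A run of at least 8 bases of C or T on the gene's strand that begins with C, within 50 bases either side of the start, was found in 53 of the 65 members (81.5%) and in 32% of the 27025 genes of the same table. The windows below hold this run in the most abundant member that has an entry and in some of the members described further on. *Rplp0* is given as an abundant member without it. Apart from *Rps15* and *Rplp0* the genes shown were picked after their values were seen, and *Rplp1*, *Rpl36*, *Rpl3*, *Rpl23a* and *Rpl21* have no entry. Capitals mark the run.
*Rps15* (chr10:80292447-80292476, plus strand): cagcccgtaCTTCCTTTTCCgagtaaccgc
*Rpl15* (chr14:18270967-18270996, minus strand): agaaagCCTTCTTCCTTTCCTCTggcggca
*Rpl22l1* (chr3:28805500-28805529, plus strand): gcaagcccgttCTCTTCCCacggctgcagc
*Rpl11* (chr4:136053357-136053386, minus strand): cggaagtCTCCCTCTCTCTTCCTgttctcc
*Rps12* (chr10:23787181-23787210, minus strand): caccgccggCCTTTTCCCCTgccgccgccg
*Rpl3l* (chr17:24727846-24727875, plus strand): tggtggggaggCCCCTTCCTaacctgcagg
*Rplp0* (chr5:115559457-115559486, plus strand): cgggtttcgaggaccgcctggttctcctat
The run held 17 bases in *Rpl15*, 16 in *Rpl11*, 11 in *Rps15* and *Rps12*, 9 in *Rpl3l* and 8 in *Rpl22l1*. It began from 4 bases before the annotated start in *Rpl15* to 31 bases after it in *Rpl3l*. Whether a run stands at the first base of the mRNA, as a TOP motif does, was not tested. A gene with several listed starts was counted once, here and below, if any of them held the letters. The 12 members without the run lack these letters in this span at each listed start and nothing more.

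The same windows were searched upstream of the start, on both strands, for elements known from housekeeping promoters. The ETS core CCGGAAG stood in 19 of the 65 members (29.2%) and in 7.83% of all genes in the table, the YY1 core AAGATGGC in 4.62 and 1.83%, and the E-box CACGTG, bound by MYC, in 7.69 and 6.86%. A TATA box (TATAAA) was found in 6.15% of members and 14.3% of all genes, and CCAAT in 29.2 and 37.5%. One window with the ETS core, that of *Rpl15* (chr14:18271030-18271059, minus strand, core in capitals), is shown because the same gene carried the longest of the pyrimidine runs above.
*Rpl15*: acaatgccccaCCGGAAGgagggtcgccgg
Members with the ETS core had a median level of 164 FPKM (17 tested) and those without it one of 121 FPKM (43 tested). Their median log2 fold changes between MEKi-treated and vehicle hearts were 0.12 with the core (17 above 0) and 0.16 without it (37 above 0). The members with a pyrimidine run had a median log2 fold change of 0.15 between MEKi-treated and vehicle hearts (50 tested, 47 above 0), and those with an entry and no run one of 0.12 (10 tested, 7 above 0). Median levels with and without the run were 135 and 130 FPKM. These shares and medians are descriptions, with no test.

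The family moved as a block from heart to heart. Summed over the members, the level was 18453, 13064, 11432, 16133 and 16780 FPKM in vehicle hearts 1 to 5, which was 3.52, 2.66, 1.95, 2.77 and 2.98% of all FPKM. In MEKi-treated hearts 1 to 5 it was 14160, 18698, 17726, 18188 and 16297 FPKM, or 2.89, 3.71, 3.25, 3.24 and 3.26% of all FPKM. Vehicle heart 3 was the lowest and MEKi heart 2 the highest, and the groups overlapped, with vehicle heart 1 above 4 of the 5 MEKi-treated hearts. The share was 2.78% ± 0.569 (SD, n = 5) in vehicle and 3.27% ± 0.289 (SD, n = 5) in MEKi-treated hearts, a difference of 0.495 percentage points that fell to 0.287 without vehicle heart 3. Outside mitochondrial genes the share was 5.16% ± 0.647 and 5.73% ± 0.492 (SD, n = 5 each). In whole heart tissue, fewer cells of a kind and less RNA per cell cannot be told apart.

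**Figure D2:**
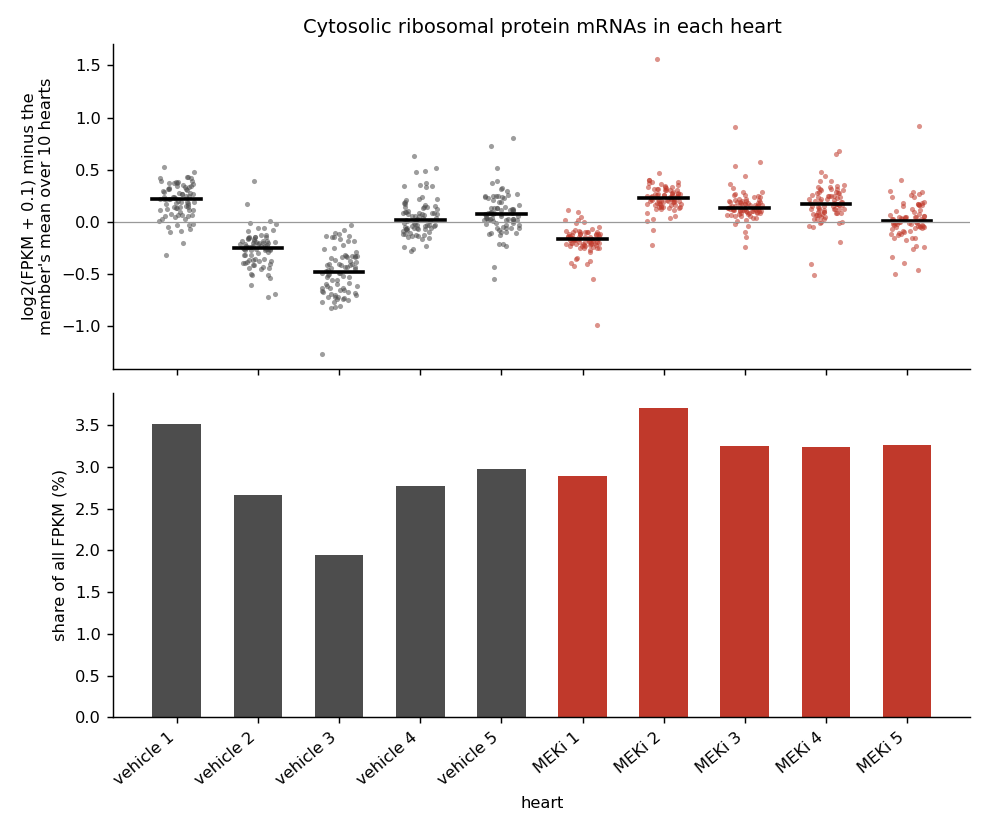
Upper panel, log2(FPKM + 0.1) of the 80 members in each of 10 hearts, minus each member's mean over the hearts (points), with the median as a bar; lower panel, the members' share of all FPKM in percent. Vehicle hearts are grey and MEKi-treated hearts red, and the medians run from -0.48 in vehicle heart 3 to 0.23 in MEKi heart 2.

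Vehicle heart 3 held the lowest value of 61 of the 80 members and the highest of 0, vehicle heart 2 the lowest of 8 and MEKi heart 1 the lowest of 5. The highest value was most often in vehicle heart 1 (19 members), MEKi heart 2 (17) and MEKi heart 4 (12). Within groups the median SD of a member was 0.27 on the log2 scale, against 0.25 for all genes tested. For the members it was 0.13 once the family median of each heart was subtracted. No other set of genes had its own median subtracted, so neither the 0.13 nor the next count has a like value beside it. With the family median subtracted, the spread fell in 75 of 80 members and rose in 5, *Rpl7l1*, *Rps2*, *Rpl4*, *Rpl23a* and *Rps6*, named here after their values were seen. In *Rpl7l1* it went from 0.22 to 0.37, so this paralog did not follow the rest of the family.

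Both subunits followed the same course. The genes for 60S proteins summed to 1.28 ± 0.0473 times those for 40S proteins in vehicle hearts and to 1.31 ± 0.0248 times in MEKi-treated hearts (SD, n = 5 each), with a range of 1.21 to 1.33 over all hearts. Other values moved with the family in some of these hearts and not in others. Vehicle heart 3, with the lowest level of the members, had the highest mitochondrial share of fragments (35.0%) and the lowest median of the mitochondrial ribosomal protein genes, at -0.18 on the centred log2 scale. Short genes outside the family, 2694 genes of under 2000 bases, had medians of -0.21 in vehicle heart 3, 0.14 in vehicle heart 1 and 0.11 in MEKi heart 2, where the members stood at -0.48, 0.22 and 0.23. In vehicle heart 2 and MEKi heart 1 the members were also low, at -0.25 and -0.17. There the short genes stood at -0.022 and -0.0045, and the mitochondrial ribosomal protein genes at 0.0022 and 0.030. MEKi heart 1 also had a mitochondrial share of fragments of only 24.2%. The part of these differences between libraries in the family's levels was not tested.

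No member passed the test for a difference between MEKi-treated and vehicle hearts. With limma over all genes, 0 of the 80 members had an adjusted p under 0.05, where 10 of 12602 genes did (0.0794%). An unadjusted p under 0.05 was reached by 4 members, that is 5.00% of the 80 against 7.62% of all genes tested. This count was not stable, and without vehicle heart 1 it was 19 members (23.8%) against 9.84% of all genes. It was 8 without vehicle heart 4 or 5, 9 without MEKi heart 1 and 2 without MEKi heart 5. With all hearts, voom on the recovered fragments gave 0 members by adjusted and 6 by unadjusted p (7.50%, against 7.74% of all genes). In 0 of 80 members did the groups fail to overlap, against 1.64% of all genes. The members nevertheless lay mostly on one side of 0. The log2 fold change was above 0 in 72 of 80 members (90%) and in 52.1% of all genes tested, and its median was 0.15 in the members and 0.01 in all genes tested. Since the members vary together between hearts, these 72 are not 72 separate observations. Without vehicle heart 3 the median was 0.06 and 61 members were above 0, and on a TPM scale it was 0.23 with 77 above 0. The median of all genes tested also moved with the setting, from -0.014 to 0.086. A change in the members' median between settings is therefore not all particular to the family.

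**Figure D3:**
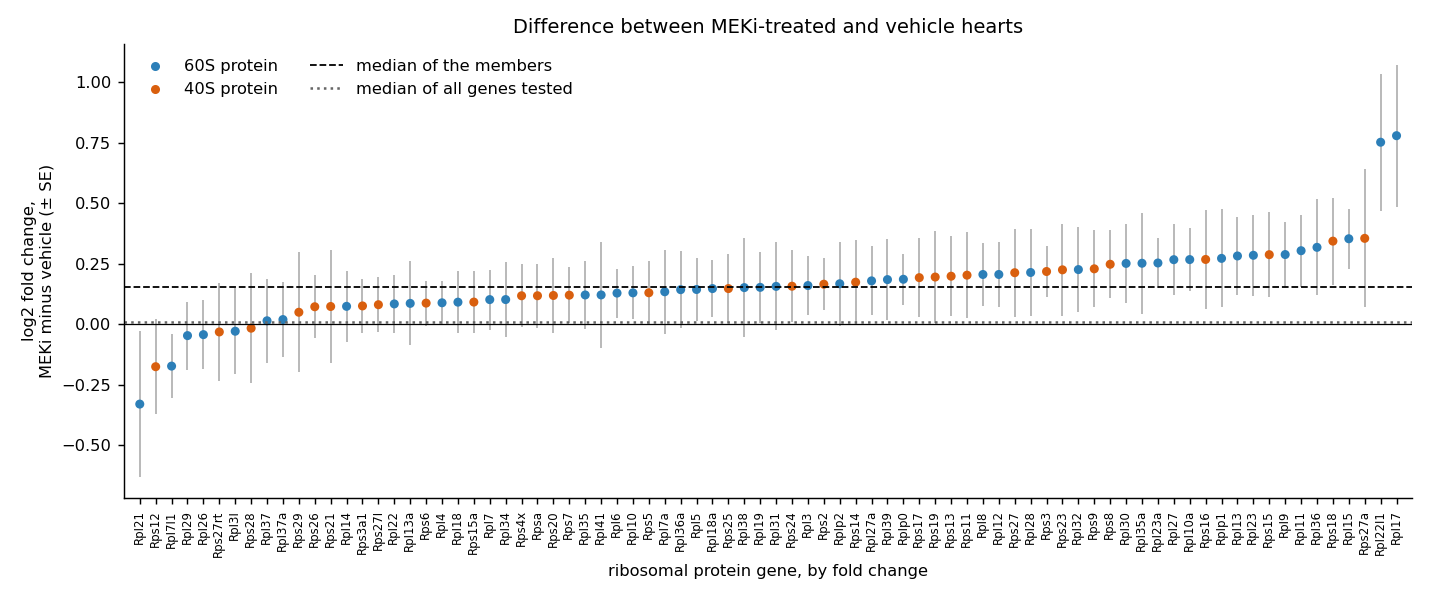
Log2 fold change (MEKi-treated minus vehicle hearts, n = 5 each) with its SE for the 80 members, ordered by value, with 60S proteins in blue and 40S proteins in orange. 72 members lie above 0, and the dashed line at 0.15, the median of the members, stands above the dotted line at 0.01, the median of all genes tested.

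The subunits did not separate in this comparison either. Of 48 genes for 60S proteins, 43 had a log2 fold change above 0 (median, 0.15), and of 32 for 40S proteins, 29 did (median, 0.15). All 4 members with an unadjusted p under 0.05, *Rpl15*, *Rpl22l1*, *Rpl17* and *Rpl23a*, encode 60S proteins or a 60S paralog, and all were higher in MEKi-treated hearts. 

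*Rpl15* encodes a protein deep in the 60S subunit (chromosome 14, from 18267823 to 18271391, minus strand). In vehicle hearts 1 to 5 it was at 88.7, 74.5, 60.8, 89.5 and 74.9 FPKM, and in MEKi-treated hearts 1 to 5 at 92.7, 96.1, 84.9, 106 and 115 FPKM. MEKi heart 3 lay below vehicle hearts 1 and 4, and the other MEKi-treated hearts lay above every vehicle heart. The means were 77.7 ± 11.9 and 98.9 ± 11.8 FPKM (SD, n = 5 each), and the log2 fold change was 0.35 ± 0.12 (SE) with a limma p of 0.0146 and an adjusted p of 0.525. The two-sided exact permutation p was 0.0317, where the smallest that 5 against 5 hearts allow is 0.00794.

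*Rpl23a* encodes a 60S protein at the exit of the nascent chain, where the signal recognition particle docks (chromosome 11, from 78180932 to 78183584, minus strand). Its levels were 188, 178, 136, 162 and 168 FPKM in vehicle hearts 1 to 5 and 180.4, 199, 209, 180.4 and 219.6 FPKM in MEKi-treated hearts 1 to 5. Every MEKi-treated heart was above the vehicle median, and vehicle heart 1 stood within the MEKi range. The log2 fold change was 0.25 ± 0.10 (SE), with an exact permutation p of 0.0317 and a limma adjusted p of 0.606. With 45.6% of its 100-base words shared with other genes, its level is among the less certain.

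*Rpl17* encodes a 60S protein that also lines the exit tunnel. Its vehicle levels were 74.2, 56.5, 58.8, 90.3 and 79.9 FPKM, and in MEKi-treated hearts 1 to 5 they were 80.0, 275, 139, 90 and 97.1 FPKM. MEKi heart 2 stood far above the rest. MEKi hearts 3 and 5 also lay above every vehicle heart, whereas MEKi hearts 1 and 4 lay within the vehicle range. The difference of 0.78 ± 0.29 on the log2 scale (SE, exact permutation p = 0.0317, limma adjusted p = 0.563) was the largest of the family, and without MEKi heart 2 it was 0.49. In that heart the copies *Rpl17-ps10* and *Rpl17-ps3* stood at 222 and 188 FPKM, against 276 to 377 FPKM and 201 to 279 FPKM in the other MEKi-treated hearts, so the heart with the highest parent had the lowest copies of its group. *Rpl17* shared 42.4% of its 100-base words with other genes, and whether fragments were placed differently in this library was not tested.

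Next by p came *Rpl9*, for a 60S protein, and *Rpl11*, for a protein of the 5S particle that also binds MDM2. *Rpl9* differed by 0.29 ± 0.13 and *Rpl11* by 0.30 ± 0.15 on the log2 scale (SE, adjusted p = 0.652 and 0.664 by limma). *Rpl11* was at 131, 95.3, 76.7, 131 and 112 FPKM in vehicle hearts 1 to 5 and at 111, 141, 136, 141 and 136 FPKM in MEKi-treated hearts 1 to 5, where all but MEKi heart 1 were above every vehicle heart. None of these members passed the test, and the adjusted p of *Rpl15* ranged from 0.38 to 0.743 over the alternatives.

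A log2 fold change below 0 was found in 8 members. *Rpl7l1*, described with its parent further on, had the smallest p of them, with a value of -0.17 ± 0.13 (SE, limma adjusted p = 0.796). *Rpl21*, a 60S protein gene of low level, had the lowest value, -0.33 ± 0.30 (SE, limma adjusted p = 0.824). It ranged from 14.6 to 31.8 FPKM in vehicle and from 9.13 to 26.4 FPKM in MEKi-treated hearts, so the groups overlapped over most of their range. *Rps12*, which encodes a 40S protein of the beak, differed by -0.18 ± 0.20 on the log2 scale (SE, adjusted p = 0.872 by limma), and its vehicle values were 56.1, 54.8, 51.8, 54.4 and 94.6 FPKM against 42.4, 67.8, 67.1, 55.6 and 41.4 FPKM in MEKi-treated hearts. Vehicle heart 5 alone stood apart, and without it the log2 fold change was -0.02. For *Rpl29* and *Rpl26*, 60S protein genes, it was -0.05 ± 0.14 and -0.04 ± 0.14, and both signs turned under other scalings or without single hearts.

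A few members outside these choices are given for their known roles, picked after their values were seen. *Rps6* encodes the 40S protein that S6 kinases phosphorylate downstream of mTOR and ERK. It was at 268, 236, 239.8, 239 and 283 FPKM in vehicle hearts 1 to 5 and at 234, 285, 289, 277 and 261 FPKM in MEKi-treated hearts 1 to 5, and was among the members that varied least between hearts. The log2 fold change was 0.09 ± 0.09 (SE, adjusted p = 0.865 by limma). *Rpl5*, whose protein forms the 5S particle with that of *Rpl11*, was at 127, 110.4, 102, 124 and 159 FPKM in vehicle and at 113, 143, 162, 139 and 128 FPKM in MEKi-treated hearts. The groups overlapped, and the value of 0.14 ± 0.13 was lower than that of its partner *Rpl11*, although the difference between these genes was not tested. *Rps27a*, a fusion of ubiquitin with a 40S protein, was at 46.5, 24.7, 28.1, 40.5 and 42.1 FPKM in vehicle and at 27.3, 48.3, 75.4, 62.7 and 30.4 FPKM in MEKi-treated hearts. Its log2 fold change of 0.36 ± 0.28 (SE, adjusted p = 0.812 by limma) was the highest of the 40S genes, with an SE close to those of *Rpl17* and *Rpl22l1*, and MEKi hearts 1 and 5 lay within the vehicle range. *Rps19*, the gene most often mutated in Diamond-Blackfan anemia, was at 64.3, 36.8, 29.9, 50.4 and 49.0 FPKM in vehicle and 43.0, 59.5, 50.4, 59.4 and 44.9 FPKM in MEKi-treated hearts, a difference of 0.20 ± 0.19 on the log2 scale with every MEKi-treated heart inside the vehicle range.

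Paralogs give a comparison within each heart that does not depend on library scaling. For 4 pairs, both genes passed the filter, and the ratio of paralog to parent was set against treatment in two-sided exact permutation tests, with Benjamini-Hochberg adjustment over the 4 pairs. No pair passed the test.

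*Rpl3l* is a copy of *Rpl3* expressed in striated muscle, where it replaces L3 beside the peptidyl transferase centre. It stood at 172, 119, 109, 102 and 114 FPKM in vehicle hearts 1 to 5 and at 104, 130.3, 134, 152 and 84.4 FPKM in MEKi-treated hearts 1 to 5 (chromosome 17, from 24727820 to 24736143, plus strand). The parent *Rpl3* was at 79.1, 69.8, 61.6, 88.9 and 99.3 FPKM and 84.3, 93.6, 87.1, 82.8 and 92.2 FPKM in the same hearts. Per length, the muscle form was above its parent in 9 of 10 hearts, with MEKi heart 5 as the exception. This order rests on the annotated lengths, 1643 bases for *Rpl3l* and 3175 for *Rpl3*, since *Rpl3* had more fragments in 9 of 10 hearts, and 28.8% of the 100-base words of *Rpl3* but 0% of those of *Rpl3l* were shared with other genes. The *Rpl3l* level of vehicle heart 1 stood above all others. The ratio of *Rpl3l* to *Rpl3* was 1.59 ± 0.439 in vehicle and 1.38 ± 0.342 in MEKi-treated hearts (SD, n = 5 each), and its log2 difference was -0.19 ± 0.25 (SE, exact permutation p = 0.468). *Rpl3l* alone differed by -0.03 ± 0.18 on the log2 scale (SE, adjusted p = 0.979 by limma), a value whose sign turned without vehicle heart 1, among other settings.

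*Rpl22l1* encodes a copy of L22, and L22 is known to hold back the expression of this copy. It was at 8.40, 4.95, 2.69, 6.57 and 4.49 FPKM in vehicle hearts 1 to 5, on 76 fragments in the lowest, and at 6.81, 8.35, 6.16, 10.6 and 12.6 FPKM in MEKi-treated hearts 1 to 5 (chromosome 3, from 28805436 to 28807424, plus strand). Vehicle hearts 1 and 4 lay within the MEKi range and the other vehicle hearts below it. The parent *Rpl22* was at 61.0, 47.7, 44.2, 61.0 and 61.6 FPKM and 49.0, 60.7, 60.8, 63.8 and 56.1 FPKM, with overlap over the whole range. The ratio of *Rpl22l1* to *Rpl22* was 0.0966 ± 0.0304 in vehicle and 0.154 ± 0.046 in MEKi-treated hearts (SD, n = 5 each). Its log2 difference of 0.67 ± 0.28 (SE) had an exact permutation p of 0.0714, or 0.286 adjusted over the 4 pairs, and it was above 0 with each heart left out, from 0.52 to 0.81. *Rpl22l1* alone differed by 0.75 ± 0.28 on the log2 scale (SE, exact permutation p = 0.0556, limma adjusted p = 0.563).

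**Figure D4:**
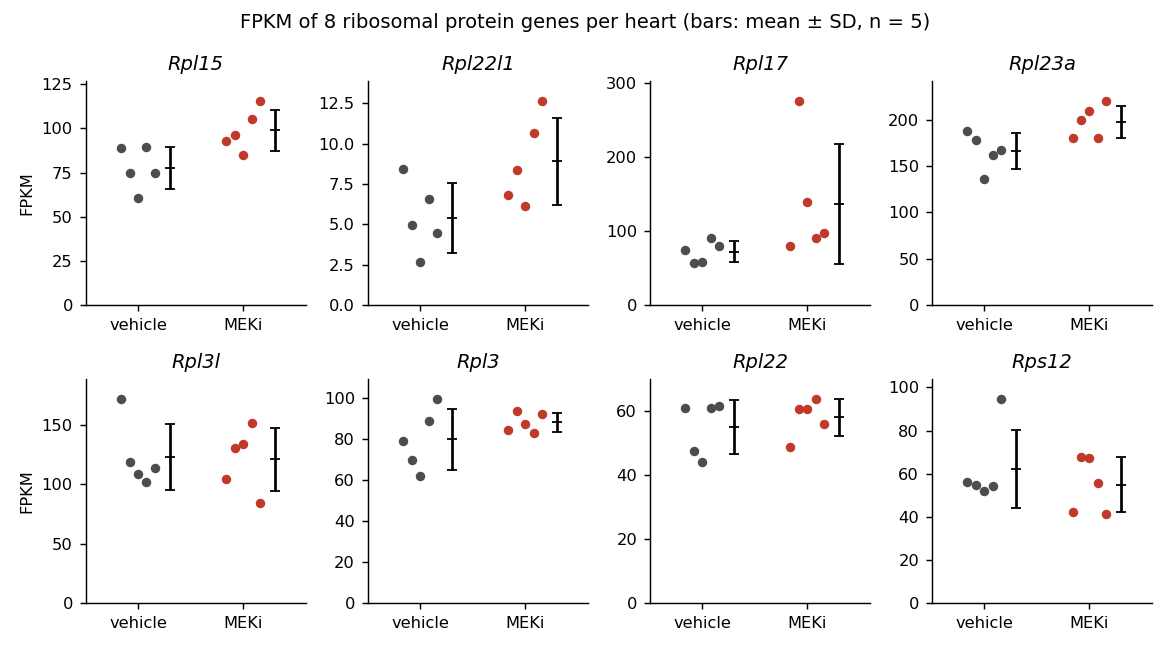
FPKM per heart of *Rpl15*, *Rpl22l1*, *Rpl17*, *Rpl23a*, *Rpl3l*, *Rpl3*, *Rpl22* and *Rps12* in 5 vehicle control hearts (grey) and 5 MEKi-treated hearts (red), on axes from 0, with the mean and SD of each group in black. The groups overlap for every gene, and single hearts stand apart for *Rpl17* (275 FPKM), *Rpl3l* (172 FPKM) and *Rps12* (94.6 FPKM).

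*Rps27l*, a copy of *Rps27* that is induced by p53, stood at 0.460 ± 0.0644 times its parent in vehicle and 0.417 ± 0.0283 times in MEKi-treated hearts, and the log2 difference was -0.13 ± 0.10 (SE, exact permutation p = 0.246). *Rpl7l1*, whose protein acts in the assembly of the 60S subunit, stood at 0.102 ± 0.0237 and 0.0848 ± 0.0221 times *Rpl7*, with a log2 difference of -0.28 ± 0.23 (SE, exact permutation p = 0.262). *Rpl7l1* was at 16.8, 21.0, 15.7, 17.6 and 14.7 FPKM in vehicle and 17.4, 15.2, 13.6, 12.1 and 17.9 FPKM in MEKi-treated hearts 1 to 5, a narrow range without a heart that stood apart. The pairs of *Rpl36al*, *Rpl39l* and *Rpl10l* could not be compared, since these paralogs were below the filter.

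The 4 members on the X chromosome are *Rps4x*, *Rpl10*, *Rpl36a* and *Rpl39*, each a gene of every ribosome. Their log2 fold changes were 0.12 ± 0.13, 0.13 ± 0.11, 0.14 ± 0.16 and 0.18 ± 0.17 (SE), with limma adjusted p from 0.818 to 0.872. *Rps4x*, for a 40S protein, was at 303, 234, 202, 234 and 285 FPKM in vehicle hearts 1 to 5 and 235, 302, 306, 277 and 239.6 FPKM in MEKi-treated hearts 1 to 5, with overlap over most of the range. The median over these 4 was 0.14, against 0.16 over the 76 members on autosomes. Over the 383 genes tested on the X chromosome it was 0.04, with 59.3% above 0, against 0.01 and 52.1% over all genes tested. The hearts divide by *Xist* as they do by treatment, so sex and treatment cannot be told apart in these values.

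Other genes of translation and ribosome production were read beside the family, each with its count and median and no test of the list. The other TOP mRNAs, which encode elongation and initiation factors and the like, had a median log2 fold change of 0.10, with 17 of 18 above 0, 0 past the adjusted threshold and 2 with an unadjusted p under 0.05. Among them were the nucleolar chaperone *Npm1* (0.24 ± 0.10) and the 40S-bound scaffold *Rack1* (0.21 ± 0.10), with limma adjusted p of 0.596 and 0.665. The mitochondrial ribosomal proteins, which serve a separate ribosome, had a median of 0.05 over 77 genes, with 53 above 0 and 0 past the threshold, and their lowest p values were those of *Mrps28* (0.26 ± 0.11), *Mrpl38* (0.26 ± 0.11) and *Mrpl48* (0.27 ± 0.12).

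The genes that build the cytosolic ribosome had medians close to 0. Ribosome biogenesis factors had a median log2 fold change of -0.01 (from -0.08 to 0.02 with each heart left out), with 14 of 31 above 0 and 0 past the threshold. Among them the nucleolar phosphoprotein gene *Nolc1* had a value of -0.31 ± 0.11, the 18S rRNA endonuclease gene *Nob1* one of 0.29 ± 0.11 and the small subunit factor gene *Wdr75* one of -0.44 ± 0.22 (SE, limma adjusted p from 0.548 to 0.666). Genes of growth signalling to the ribosome had a median of -0.04, which was 0.02 without vehicle heart 3, with 8 of 19 above 0 and 0 past the threshold. *Rps6ka2*, which encodes a p90 S6 kinase downstream of ERK, was at 4.25 ± 0.632 FPKM in vehicle and 2.95 ± 0.535 FPKM in MEKi-treated hearts, a log2 difference of -0.52 ± 0.14 (SE, adjusted p = 0.401 by limma). *Rheb*, the GTPase that activates mTOR complex 1, had a value of 0.27 ± 0.09 (adjusted p = 0.522 by limma) and *Eif4ebp1*, a repressor of cap-dependent translation, one of 0.36 ± 0.18 (adjusted p = 0.669 by limma).

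**Figure D5:**
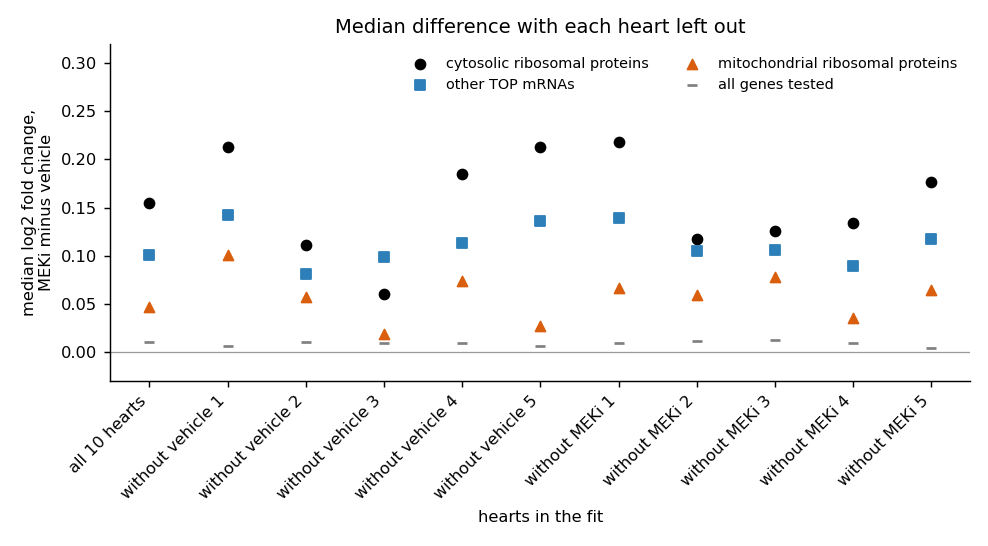
Median log2 fold change (MEKi-treated minus vehicle hearts) of 80 cytosolic ribosomal protein genes, 18 other TOP mRNAs, 77 mitochondrial ribosomal protein genes and all 12602 genes tested, with all 10 hearts and with each heart left out. The median of the cytosolic ribosomal proteins runs from 0.06 without vehicle heart 3 to 0.22 without MEKi heart 1, that of all genes from 0.00 to 0.01.

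With each heart left out, the median of the members ran from 0.06 to 0.22, that of the other TOP mRNAs from 0.08 to 0.14 and that of the mitochondrial ribosomal proteins from 0.02 to 0.10. Leaving out vehicle heart 3 lowered the median of the members the most. Without it the median of the members lay below that of the other TOP mRNAs (0.06 and 0.10). Without the 3 hearts with high atrial markers, the median of the members was 0.22 with 74 of 80 above 0. The vehicle hearts in that fit were 1, 2 and 3, with centred member medians of 0.22, -0.25 and -0.48. Leaving out only vehicle heart 4 or only vehicle heart 5 gave 0.18 and 0.21. Of the cell type markers, those of cardiomyocytes had a median log2 fold change of 0.14, with 5 of 6 above 0, beside 0.15 for the members. Without the same 3 hearts the cardiomyocyte median was 0.05, beside 0.22 for the members. Adipocyte markers had a median of 0.97 with all hearts (2 of 2 tested above 0) and of 0.43 without those hearts. With all hearts the median was -0.14 for endothelial markers (1 of 6 above 0), -0.28 for mural markers (1 of 5), -0.90 for red cell markers (0 of 5), -0.19 for lymphocyte markers (0 of 3), -0.13 for fibroblast markers (2 of 6) and -0.36 for macrophage markers (0 of 6), and 0 genes of these lists passed the threshold. Without the 3 hearts the sign turned for endothelial (0.02), red cell (0.22) and lymphocyte markers (0.27). It stayed below 0 for mural (-0.27), fibroblast (-0.10) and macrophage markers (-0.27). Macrophage markers summed to 230 ± 56.3 FPKM in vehicle and 174.9 ± 18 FPKM in MEKi-treated hearts, and fibroblast markers to 194 ± 34.1 and 194 ± 25.3 FPKM (SD, n = 5 each). The part of cell composition in the members' levels was not tested.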

How the data were processed

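RNA from 10 hearts was sequenced by the study, 5 per group. The authors deposited 1 table of FPKM, in which fragment counts are divided by gene length and a library size for each heart. The submitters' processing notes name fastp, STAR 2.5, HTSeq 0.6.1 and the mm10 genome, and the annotation release, the counting mode and strand setting are not given in the sources used here. In every heart 100% of the FPKM times gene length were whole multiples of one step (tolerance 0.01), which gave the fragments behind each value.

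Members were found by name. The members and the gene lists were chosen with earlier results of these data known. The log2(FPKM + 0.1) values were fitted in R 4.3.3 by limma 3.58.1 (lmFit, eBayes with a trend), two-sided, for the 12602 genes averaging 0.5 FPKM or more, with Benjamini-Hochberg adjustment over all of them and a threshold of 0.05. Fold changes on this scale understate those of low genes. The fit was tested on simulated data. Single genes and ratios were also compared by exact permutation over all 252 assignments. The labels number the hearts as biological replicates, and each was counted as 1 sample.

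Overlap of exons and shared 100-base words were read from GENCODE M21, where 83 of 85 members have the same coordinates as in the table, and start windows from RefSeq GRCm38.p6. *Rps4l*, set beside *Rps4x* as a pair, is given as a pseudogene in the table and was not used. Python 3.11.15 with pandas 2.3.3 and numpy 2.4.6 made the summaries. Genes named are those with the smallest p in each direction (up to 6), paralog pairs, X-linked members, the 4 highest and 4 lowest members, those below the filter, and up to 3 genes per related list. One gene that this choice names is not reported here. Alternatives were other pseudocounts, filters, scalings and weights, voom, a replicate block, and leaving out hearts. Same-numbered hearts did not deviate together, so the numbers were not taken as pairs.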

Additional observations from a re-analysis of the deposited data

Results flagged for a closer look

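Among the 66 groups of 5 hearts examined (the family totals, the named members and the paralog ratios in each treatment group), a single heart stood apart from the other 4 in 3 by Dixon's gap ratio. Chance flags about 1 group in 20, which is 3.3 of 66, so the number itself is no result.

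*Rps12* was at 94.6 FPKM in vehicle heart 5 and between 51.8 and 56.1 FPKM in the other vehicle hearts. *Rpl3l*, the striated muscle copy of *Rpl3*, was at 172 FPKM in vehicle heart 1 and between 102 and 119 FPKM in the other vehicle hearts. *Rpl11* was at 111 FPKM in MEKi heart 1 and between 136 and 141 FPKM in the other MEKi-treated hearts.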

How the results depend on the processing

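No member passed the adjusted threshold in any of the 23 alternatives, where the lowest adjusted p of a member was 0.335 (limma). The median log2 fold change of the members was above 0 in all of them, from 0.06 without vehicle heart 3 to 0.23 on the TPM scale, and 0.10 with quantile normalization. The median of all genes tested ran from -0.014 to 0.086 over the settings. Members above 0 numbered 61 to 77 in the alternatives with the same 80 members. The number with an unadjusted p under 0.05 depended most on the hearts used. It was 4 with all hearts, 9 on the TPM scale, and from 2 (without MEKi heart 5) to 19 (without vehicle heart 1) with each heart left out. It was 8 without vehicle heart 4 or 5 and 9 without MEKi heart 1. The difference in the members' share of FPKM ran from 0.287 to 0.681 percentage points with each heart left out, and was 0.563 outside mitochondrial genes and 0.327 as a share of fragments. With a replicate block, the median was 0.15, with 72 members above 0. There 3 members (3.75%) had an unadjusted p under 0.05, against 6.12% of all genes, and no adjusted call of a member changed. Correlations of same-numbered hearts' deviations ran from -0.15 to -0.02.

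Of 598 alternative values of 26 named members, 582 kept their direction and 16, all in members close to 0, did not. On the TPM scale and with array weights, *Rpl26* was at 0.036 and 0.018, *Rpl29* at 0.032 and 0.0067 and *Rpl3l* at 0.050 and 0.043. With each heart left out, *Rpl26* ran from -0.097 to 0.046, *Rpl29* from -0.110 to 0.056, *Rpl3l* from -0.118 to 0.098 and *Rpl13a* from -0.073 to 0.160. The cause was not tested. The paralog ratios kept their direction and stayed short of the threshold throughout.

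Of the members past the filter, *Rpl22l1* had the fewest fragments, 76 in its lowest heart. Members below the filter had at most 33 fragments in a heart. Treatment and sex cannot be told apart, and no differences in translation can be read from these values.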
